A study of Mus musculus with 24 samples.

Results

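The genes described here encode β-catenin and the proteins that hold it at the membrane or mark it for destruction. They are 10 of the 19938 genes measured on the arrays, in a list chosen with earlier results of these data known. It holds β-catenin (*Ctnnb1*), its close relative plakoglobin (*Jup*), αE-catenin (*Ctnna1*), p120-catenin (*Ctnnd1*), E-cadherin (*Cdh1*) and N-cadherin (*Cdh2*). The destruction complex genes in it are *Apc*, *Axin1*, *Gsk3b* and *Csnk1a1*. All 10 were measured, each by 1 probe set. In none of the 3 mutants did any of them pass the test across all genes, and no 95% interval of a change reached 1.5-fold in either direction.

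β-catenin works in 2 places. At adherens junctions it binds the tail of a cadherin and, through α-catenin, links it to actin, while p120-catenin binds a separate part of the same tail and keeps the cadherin at the surface. In the cytoplasm, β-catenin that is not held by a cadherin is bound by Axin and Apc, phosphorylated by casein kinase 1α and Gsk3β and degraded. Wnt ligands stop that step, and β-catenin then enters the nucleus and acts with Tcf and Lef factors. Plakoglobin is built like β-catenin, sits in desmosomes as well as in adherens junctions, and can take the place of β-catenin at a cadherin, which is why its level is of interest where *Ctnnb1* has been deleted.

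Gene expression was measured in the anterior heart field (AHF), the pharyngeal mesoderm that supplies the outflow tract and right ventricle, of mouse embryos at E9.5. *Tbx1* LOF embryos were Mef2c-AHF-Cre/+;Tbx1f/- or Mef2c-AHF-Cre/+;Tbx1f/f, β-cat LOF embryos were Mef2c-AHF-Cre/+ with both β-catenin alleles floxed, and rescue embryos were *Tbx1* LOF embryos with 1 floxed β-catenin allele added. Each of these 3 mutants had its own controls, and each of the 6 groups had 4 arrays, 24 in all. For the controls, the methods give littermates without Cre that carried 1 floxed allele of each gene under study, and the sample labels give wild type and Mef2c-AHF-Cre/+;Tbx1f/+ littermates, so their genotype is not settled here. An array held the pooled tissue of several embryos, dissected as pharyngeal arches that contain the AHF along with other cells. Mef2c-AHF-Cre is active in only some of these cells. In such bulk tissue, fewer cells of a type and less RNA per cell cannot be told apart.

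AHF markers gave signal on the arrays, with means over the 24 arrays of 10.77 log2 for *Isl1*, 10.34 log2 for *Hand2* and 10.66 log2 for *Mef2c*. So did *Epcam* of epithelium (10.42 log2) and *Tnnt2* of heart muscle (11.86 log2). *Tbx1*, the gene deleted in *Tbx1* LOF and rescue embryos, read 10.98, 11.28, 11.43 and 11.40 log2 on the *Tbx1* LOF arrays, against 11.91, 11.77, 11.98 and 11.99 log2 on their controls, and fell by 0.64 log2 (limma, adjusted p = 0.00626 over all genes). The groups did not overlap and the sign held throughout, but this call was lost with the replicate number as a block (adjusted p = 0.122), in a fit of this experiment alone (0.185), over replicates 1 and 2 (0.236) or replicates 3 and 4 (0.0603), and narrowly without mutant array 1 (0.0504), control array 3 (0.0512) or control array 4 (0.0534). On the rescue arrays it read 11.39, 11.49, 11.51 and 11.49 log2, against 11.83, 11.95, 11.75 and 11.58 log2 on their controls, again without overlap (limma, adjusted p = 1.0 over all genes after rounding, unadjusted p = 0.00344).

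As the values below describe, *Ctnnb1* correlated closely with *Ctnnd1* over all 24 arrays (r = 0.893) and not with its relative *Jup*. Within replicates 1 and 2 and within replicates 3 and 4 the r with *Ctnnd1* was 0.510. The bases before the start sites of these 3 members are shown for that contrast over all arrays. They are the 250 bases before the first start that RefSeq lists for each gene in GRCm38.p6, read 5′ to 3′ on the gene's strand, at chr9:120933150-120933399 on the plus strand for *Ctnnb1*, chr2:84658978-84659227 on the minus strand for *Ctnnd1* and chr11:100397791-100398040 on the minus strand for *Jup*. Capitals mark the CCAAT box on either strand (CCAAT or ATTGG).
Ctnnb1: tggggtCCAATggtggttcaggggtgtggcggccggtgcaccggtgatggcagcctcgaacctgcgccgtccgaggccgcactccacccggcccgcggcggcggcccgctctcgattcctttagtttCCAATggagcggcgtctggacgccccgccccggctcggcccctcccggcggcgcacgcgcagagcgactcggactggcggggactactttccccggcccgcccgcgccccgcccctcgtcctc
Ctnnd1: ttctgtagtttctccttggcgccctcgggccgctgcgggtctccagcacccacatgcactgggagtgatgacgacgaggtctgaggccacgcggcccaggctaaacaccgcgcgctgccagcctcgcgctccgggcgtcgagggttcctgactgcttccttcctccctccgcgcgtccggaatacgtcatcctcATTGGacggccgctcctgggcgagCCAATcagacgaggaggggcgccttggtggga
Jup: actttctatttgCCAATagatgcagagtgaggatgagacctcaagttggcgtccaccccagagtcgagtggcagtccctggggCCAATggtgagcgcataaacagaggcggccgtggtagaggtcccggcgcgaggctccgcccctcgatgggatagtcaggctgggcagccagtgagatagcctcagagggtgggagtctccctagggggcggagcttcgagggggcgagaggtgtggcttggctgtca
Each stretch held 2 CCAAT boxes, and at least 1 was found in 33.8% of the 32851 stretches of the same length in the table. The stretch was 74.8% G and C for *Ctnnb1*, 66.8% for *Ctnnd1* and 62.0% for *Jup*, against a median of 52.4% over the table, and held 35, 26 and 13 CpG dinucleotides in that order of genes. CTTTGA, the core of the sequence that Tcf and Lef factors bind, was searched for as CTTTGA or TCAAAG, occurred in none of these 3 stretches and was present in 13.8% of the table. These matches describe the letters only. The table also holds *Gsk3b*, which is not shown, and does not hold *Ctnna1*, *Cdh1*, *Cdh2*, *Apc*, *Axin1* or *Csnk1a1*.

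On the arrays, *Ctnnb1* itself was nearly level across the 3 experiments. By qRT-PCR, a different measure, the study reported significantly more β-catenin mRNA than in controls in *Tbx1* LOF, and less in rescue. Why the 2 measures differ was not tested. In β-cat LOF embryos both alleles were floxed. Their arrays read 13.27, 13.24, 13.11 and 13.09 log2 for *Ctnnb1*, against 13.19, 13.23, 13.19 and 13.21 log2 on their controls. Arrays 1 and 2 of the mutant lay above every control and arrays 3 and 4 below every control, so the groups overlapped. The change was −0.03 ± 0.06 log2 (SE), a fold of 0.982 with a 95% interval of 0.903 to 1.07 (limma, adjusted p = 0.958 over all genes). Which exons the probe set covers relative to the deleted ones was not stated in the study's sources, so this value checks neither the labels nor the extent of deletion.

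On the *Tbx1* LOF arrays *Ctnnb1* read 13.30, 13.33, 13.10 and 13.13 log2, against 13.39, 13.29, 13.16 and 13.16 log2 on their controls, and the groups overlapped at a fold of 0.976 (95% interval 0.897 to 1.06). On the rescue arrays, where 1 allele was floxed, it read 13.14, 13.12, 13.11 and 13.14 log2, against 13.19, 13.16, 13.16 and 13.20 log2 on their controls. All 4 rescue arrays lay below all 4 controls, as they did for 2.24% of all genes. The difference was small, at −0.05 ± 0.06 log2 (SE) or a fold of 0.967 (95% interval 0.889 to 1.05). The exact two-sided permutation test over the arrays of this experiment gave p = 0.0286, the smallest that 4 arrays against 4 can give, and limma, whose spread comes from all 24 arrays, gave p = 0.409. From highest to lowest, the group means of *Ctnnb1* were 13.25 log2 in *Tbx1* controls, 13.22 in *Tbx1* LOF, 13.20 in β-cat controls, 13.18 in β-cat LOF, 13.18 in rescue controls and 13.13 in rescue, and neighbours in that order overlapped apart from the last pair.

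*Jup* was not higher on average where both β-catenin alleles were floxed. On the β-cat LOF arrays it read 11.34, 11.45, 11.39 and 11.15 log2, against 11.36, 11.58, 11.36 and 11.18 log2 on their controls. The groups overlapped almost fully, with a change of −0.04 ± 0.07 log2 (SE) and a fold of 0.974. In the main fit with all controls kept, the 95% interval of that fold was 0.876 to 1.08. This leaves room for an increase of plakoglobin mRNA of less than 1.1-fold in the dissected tissue as a whole. That limit depends on the fit. In a fit of this experiment alone the change was −0.04 ± 0.09 log2 (SE). Without control array 2 it was 0.03 ± 0.07 log2 (SE). Both alternatives place the upper limit higher. Larger changes confined to Cre-expressing cells cannot be told apart from none. On the rescue arrays *Jup* read 11.06, 11.20, 11.29 and 11.29 log2, against 11.25, 11.19, 11.09 and 11.20 log2 on their controls, also overlapping (fold 1.02, 95% interval 0.918 to 1.13).

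It was in *Tbx1* LOF, where the β-catenin alleles were not targeted, that the *Jup* groups did not overlap. All mutant arrays lay above all controls for 1.32% of all genes in this comparison. There *Jup* read 11.43, 11.28, 11.35 and 11.28 log2, against 11.20, 11.18, 11.25 and 11.24 log2 on their controls. Every mutant array lay above every control, by 0.12 ± 0.07 log2 (SE) on average, a fold of 1.085 (95% interval 0.976 to 1.21). The exact two-sided permutation test gave p = 0.0286, again the smallest possible, and limma gave p = 0.124 and an adjusted p of 1.0 after rounding. The change in *Tbx1* LOF exceeded that in β-cat LOF by 0.16 ± 0.10 log2 (SE), a difference that limma did not separate from the spread (adjusted p = 0.923, 95% interval −0.06 to 0.37 log2).

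Heart muscle markers moved in the same direction as *Jup* in *Tbx1* LOF. The mean of 10 heart muscle genes lay between 11.37 and 11.65 log2 on the *Tbx1* LOF arrays, against 10.42 to 11.0 log2 on their controls. On average 10 of 10 genes were higher, 8 of them at an unadjusted limma p under 0.05 (4.12% of all genes). On the β-cat LOF arrays the mean lay between 10.65 and 11.21 log2, against 11.07 to 12.95 log2 on their controls. There 0 of 10 genes were higher and 9 were lower at that threshold (5.72% of all genes). The value of 12.95 log2 belonged to control array 2, which also had the highest *Jup* (11.58 log2) and *Cdh2* (12.42 log2) and the lowest *Cdh1* (10.46 log2) of all 24 arrays. Without that array, the *Jup* change in β-cat LOF was 0.03 log2 (limma, adjusted p = 0.999). In rescue, where the *Jup* fold was 1.02, 9 of 10 heart muscle genes were higher on average and 0 were under the unadjusted threshold. In *Tbx1* LOF 6 of 6 erythroid markers were also higher on average, and 0 of 7 neural tube markers were. The part of heart muscle or erythroid RNA in the *Jup* values was not tested.

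**Figure D1:**
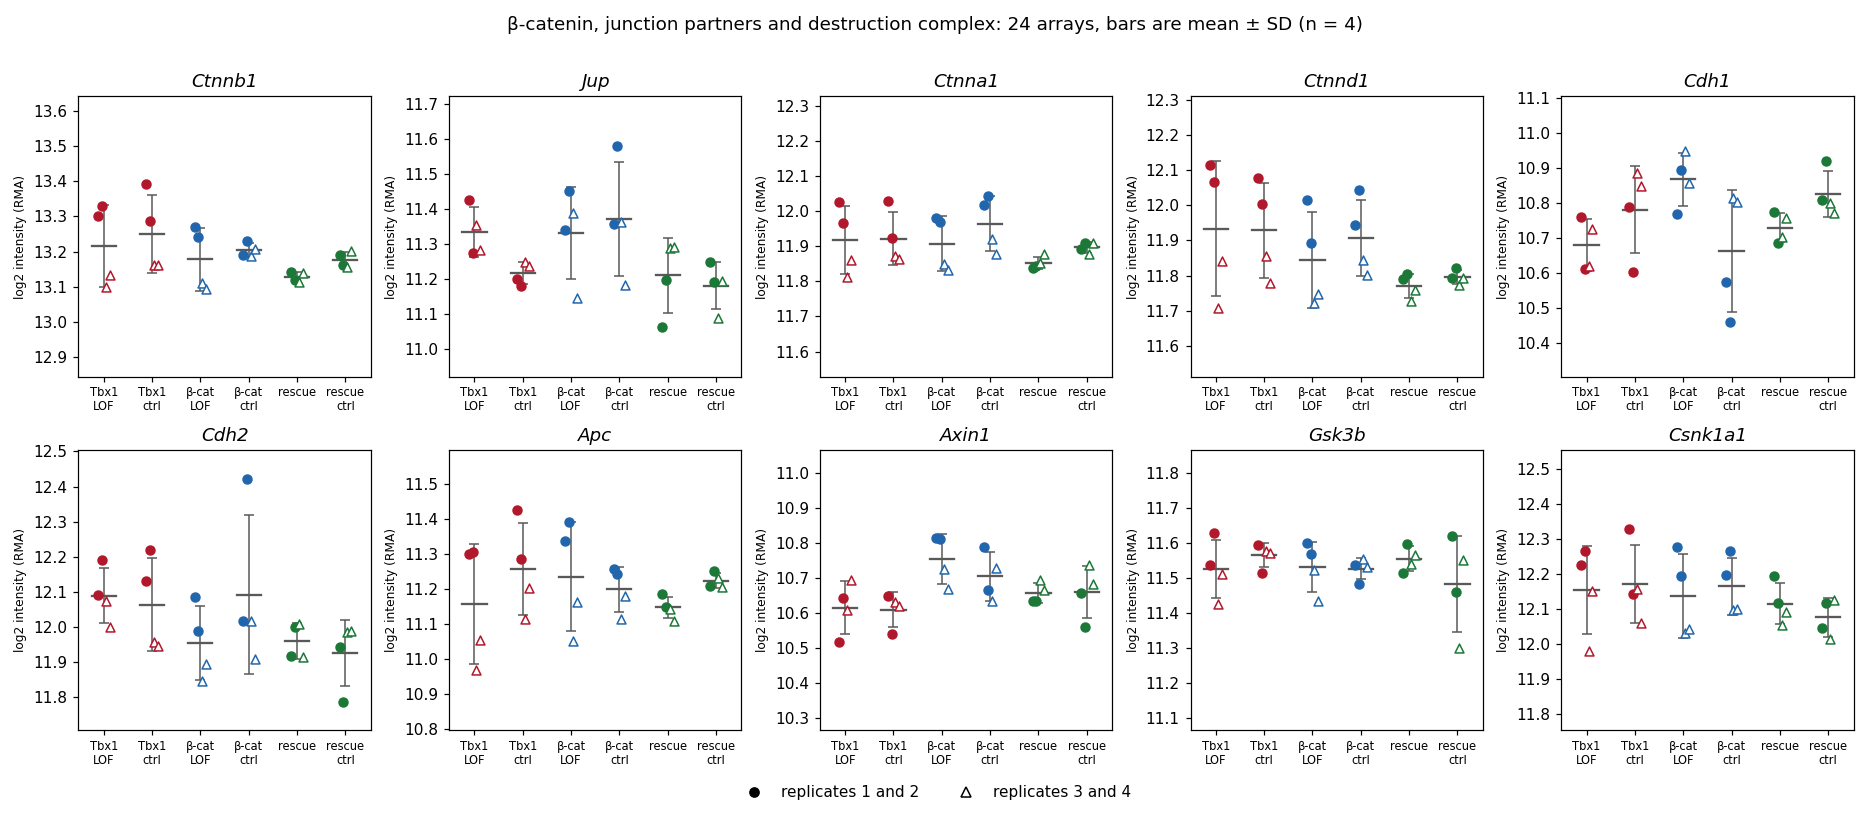
Log2 intensity of each of the 10 genes on the 24 arrays, with each mutant left of its own controls; filled circles are replicates 1 and 2, open triangles replicates 3 and 4, and bars the mean ± SD of 4 arrays. Each panel spans the same log2 range, and *Jup* in *Tbx1* LOF, *Ctnnb1* in rescue and *Apc* in rescue are the cases without overlap between mutant and control.

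The other catenins passed no test in any mutant. *Ctnna1*, the actin link, read 11.98, 11.97, 11.85 and 11.83 log2 on the β-cat LOF arrays, against 12.02, 12.04, 11.92 and 11.88 log2 on their controls, a fold of 0.962 (95% interval 0.889 to 1.04). Each mutant array lay below the control of the same number, though the numbers were not taken to pair the arrays of this experiment. With the number as a block limma gave an adjusted p of 0.649, against 0.887 without it. On the rescue arrays it read 11.84, 11.84, 11.85 and 11.88 log2, against 11.89, 11.91, 11.88 and 11.91 log2, so that 3 of 4 rescue arrays lay below every control (exact permutation test, p = 0.0571). In *Tbx1* LOF its fold was 0.997. *Ctnnd1*, which stabilises cadherins at the surface, changed by a fold of 1.0 in *Tbx1* LOF, 0.957 in β-cat LOF and 0.982 in rescue, with 95% intervals that together ran between 0.850 and 1.13.

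*Cdh1* gave the largest change among the 10 genes and the only one with an unadjusted p under 0.05 in any mutant. On the β-cat LOF arrays it read 10.77, 10.90, 10.95 and 10.86 log2, against 10.57, 10.46, 10.81 and 10.80 log2 on their controls. Arrays 2, 3 and 4 of the mutant lay above every control and array 1 lay below control arrays 3 and 4. The change was 0.20 ± 0.07 log2 (SE), a fold of 1.15 (95% interval 1.04 to 1.28), with limma p = 0.00983, an adjusted p of 0.782 over all genes and an exact permutation p of 0.0857. It was 0.32 log2 over replicates 1 and 2 and 0.09 log2 over replicates 3 and 4. Without control array 2 it was 0.14 log2 (limma, adjusted p = 0.999) and no longer under the unadjusted threshold.

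In the other mutants *Cdh1* lay, on average, below its controls. On the *Tbx1* LOF arrays it read 10.76, 10.61, 10.62 and 10.73 log2, against 10.79, 10.60, 10.88 and 10.85 log2 on their controls, a fold of 0.932 (95% interval 0.840 to 1.03). On the rescue arrays it read 10.78, 10.69, 10.70 and 10.76 log2, against 10.81, 10.92, 10.80 and 10.77 log2, a fold of 0.936 (95% interval 0.843 to 1.04) with 3 of 4 rescue arrays below every control. The change in *Tbx1* LOF differed from that in β-cat LOF by −0.31 ± 0.10 log2 (SE; limma, adjusted p = 0.368 over all genes), and the change in rescue differed from that in β-cat LOF by −0.30 ± 0.10 log2 (SE; adjusted p = 0.938), both under the unadjusted threshold of 0.05. Of the 6 group means of *Cdh1*, that of β-cat LOF was the highest (10.87 log2) and that of its own controls the lowest (10.66 log2), with 10.83 log2 in rescue controls and 10.78 log2 in *Tbx1* controls. The ranges of neighbouring groups in that order overlapped.

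Genes of epithelium, where E-cadherin is the main cadherin, stood beside *Cdh1* in this pattern. Of 15 epithelial markers, 14 were higher on average in β-cat LOF than in its controls, with a median change of 0.14 log2 against 0.01 log2 over all genes, and 1 of them, *Spint1*, had an unadjusted p under 0.05. Their mean lay between 10.62 and 10.82 log2 on the β-cat LOF arrays, against 10.42 to 10.73 log2 on the controls. *Epcam*, an epithelial adhesion protein, read 10.40, 10.43, 10.46 and 10.36 log2 on the β-cat LOF arrays, against 10.12, 9.89, 10.41 and 10.43 log2, so that control arrays 1 and 2 were low for *Epcam* as they were for *Cdh1*. In rescue 1 of the 15 was higher, and the mean lay between 10.62 and 10.67 log2, against 10.69 to 10.83 log2 on the controls. In *Tbx1* LOF 5 of the 15 were higher, 2 of them at an unadjusted limma p under 0.05 (4.12% of all genes). At that threshold 1 of the 15 was lower in rescue (1.27% of all genes). Pharyngeal endoderm and surface ectoderm markers rose by less in β-cat LOF, with medians of 0.04 and 0.06 log2. There 5 of 8 and 4 of 6 genes were higher on average, and 1 in each list had an unadjusted limma p under 0.05. For both lists the means on mutant and control arrays overlapped. Other tissues moved with *Cdh1* in β-cat LOF as well. All 7 neural tube markers were higher on average, with a median of 0.24 log2 and 2 at an unadjusted p under 0.05, and their mean lay between 8.71 and 8.90 log2 on the β-cat LOF arrays, against 8.44 to 8.55 log2 on the controls, without overlap. Of 9 neural crest and arch mesenchyme markers 7 were higher, with a median of 0.07 log2 and overlapping means. The neural tube markers were also higher in rescue (6 of 7), where *Cdh1* was lower on average, and 0 of 7 were higher in *Tbx1* LOF. The part of epithelial, neural tube or neural crest RNA in the *Cdh1* values was not tested.

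*Cdh2*, the cadherin of heart muscle, neural tissue and mesenchyme, read 12.08, 11.99, 11.84 and 11.89 log2 on the β-cat LOF arrays, against 12.02, 12.42, 12.02 and 11.91 log2 on their controls. The difference of −0.14 ± 0.09 log2 (SE; limma, adjusted p = 0.862) rested on control array 2, and it was −0.03 log2 without that array. The folds of *Cdh2* in *Tbx1* LOF and rescue were 1.02 and 1.02.

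Among the destruction complex genes, *Apc*, the scaffold that is lost in many intestinal tumours, gave the lowest fold changes in *Tbx1* LOF and rescue. On the rescue arrays it read 11.19, 11.15, 11.14 and 11.11 log2, against 11.21, 11.25, 11.23 and 11.21 log2 on their controls. All 4 rescue arrays lay below all 4 controls, as they did for 2.24% of all genes. *Apc* was lower by 0.08 log2 on average, a fold of 0.948 (95% interval 0.847 to 1.06, exact permutation p = 0.0286, limma p = 0.339). On the *Tbx1* LOF arrays it read 11.30, 11.31, 10.97 and 11.05 log2, against 11.42, 11.29, 11.11 and 11.20 log2, a fold of 0.933 (95% interval 0.834 to 1.04). In β-cat LOF its fold was 1.03.

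*Axin1*, the other scaffold, and the kinases showed less. *Axin1* differed by a fold of 1.0 in *Tbx1* LOF, 1.04 in β-cat LOF and 0.998 in rescue, with 95% intervals that ran between 0.927 and 1.12. *Gsk3b* differed by a fold of 0.974 in *Tbx1* LOF, 1.0 in β-cat LOF and 1.05 in rescue, and its 11.51, 11.60, 11.54 and 11.57 log2 on the rescue arrays fell within the range of their controls at 11.62, 11.46, 11.30 and 11.55 log2. *Csnk1a1*, casein kinase 1α, differed by a fold of 0.989 in *Tbx1* LOF, 0.981 in β-cat LOF and 1.03 in rescue. Mutant and control arrays overlapped in each of these 9 cases.

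**Figure D2:**
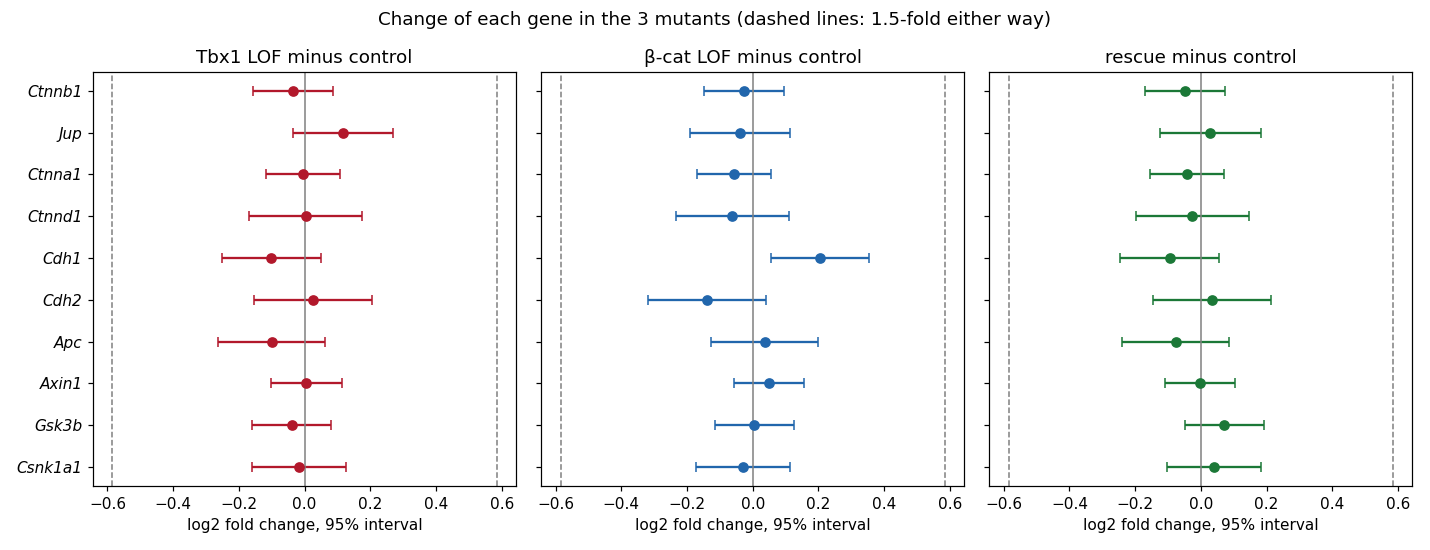
Log2 fold change of each gene, mutant minus its own controls, with the 95% interval from limma; the solid line marks no change and the dashed lines 1.5-fold either way. Of the 30 intervals, that of *Cdh1* in β-cat LOF (1.04 to 1.28-fold) is the only one that leaves out no change, and none reaches a dashed line.

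Counted together, 0 of the 10 genes had an adjusted p under 0.05 in *Tbx1* LOF, against 0.0301% of all genes, 0 in β-cat LOF, against 0% of all genes, and 0 in rescue, against 0% of all genes. With the replicate number as a block in the fit, 0 genes passed in *Tbx1* LOF in place of 6. At an unadjusted p under 0.05 the counts were 0 of 10 in *Tbx1* LOF (4.12% of all genes), 1 of 10 in β-cat LOF (5.72%) and 0 of 10 in rescue (1.27%). All mutant arrays lay above all controls for 1 of 10 genes in *Tbx1* LOF (1.32% of all genes), 0 in β-cat LOF (2.06%) and 0 in rescue (0.737%), and below all controls for 0 in *Tbx1* LOF (0.973%), 0 in β-cat LOF (0.787%) and 2 in rescue (2.24%). The median change of the 10 genes was −0.01 log2 in *Tbx1* LOF, −0.03 in β-cat LOF and −0.01 in rescue, beside medians over all genes of −0.01, 0.01 and −0.02 log2 in the same order. The 30 intervals ran between 0.802-fold and 1.28-fold, 29 of them spanned no change, and 0 reached 1.5-fold.

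The differences between mutants were tested in the same fit. For *Tbx1* LOF against β-cat LOF, 0 of 10 genes passed at the adjusted threshold (0.0502% of all genes) and 1 of 10, *Cdh1*, at the unadjusted threshold (6.44%). For rescue against *Tbx1* LOF the counts were 0 (0% of all genes) and 0 (1.71%), and for rescue against β-cat LOF they were 0 (0%) and 1, again *Cdh1* (4.85%). These comparisons share arrays: the β-cat LOF arrays and their controls enter both counts that hold *Cdh1*. The change of *Ctnnb1* in rescue differed from that in *Tbx1* LOF by −0.01 ± 0.08 log2 (SE), with a 95% interval of −0.19 to 0.16 log2. These 2 changes come from separate experiments, each with its own controls, so their difference does not isolate the added floxed allele.

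In the *Tbx1* and β-cat experiments more of the 10 genes differed by replicate number than by genotype. In the *Tbx1* experiment, 5 of 10 genes were higher in replicates 1 and 2 than in replicates 3 and 4 at an adjusted limma p under 0.05, against 25.1% of all genes in either direction. *Ctnnb1* averaged 13.33 log2 in replicates 1 and 2 and 13.14 log2 in replicates 3 and 4 (difference 0.19 ± 0.04 log2, SE, adjusted p = 0.0011), *Ctnnd1* differed by 0.27 log2 and *Apc* by 0.24 log2, and for each of them the arrays numbered 1 and 2 lay above all those numbered 3 and 4, mutants and controls alike. *Ctnna1* and *Csnk1a1* differed by 0.13 and 0.15 log2. In the β-cat experiment 4 of 10 were higher in replicates 1 and 2 (*Ctnna1*, *Ctnnd1*, *Apc* and *Csnk1a1*, by 0.13 to 0.20 log2) and *Cdh1* was lower by 0.18 log2, against 11.7% of all genes in either direction, and in the rescue experiment 0 of 10 passed (0% of all genes). The methods state that arrays were run in batches, but the sources do not say which array belonged to which, and the replicate numbers are not labelled as batches.

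With a term for this division of the arrays in the fit, the changes stay as given and their errors shrink. The error of *Ctnnb1* became 0.04 log2, with an adjusted p of 1.0 in rescue after rounding, and that of *Jup* 0.07 log2, with an adjusted p of 0.934 for *Tbx1* LOF and 0.859 for β-cat LOF. *Apc* in *Tbx1* LOF came under the unadjusted threshold (adjusted p = 0.784) and the adjusted p of *Cdh1* in β-cat LOF was 0.304 in place of 0.782, all by limma. Within the divisions, *Jup* in *Tbx1* LOF differed by 0.16 log2 over replicates 1 and 2 and by 0.07 log2 over replicates 3 and 4, and *Ctnnb1* in β-cat LOF by 0.04 and by −0.10 log2.

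**Figure D3:**
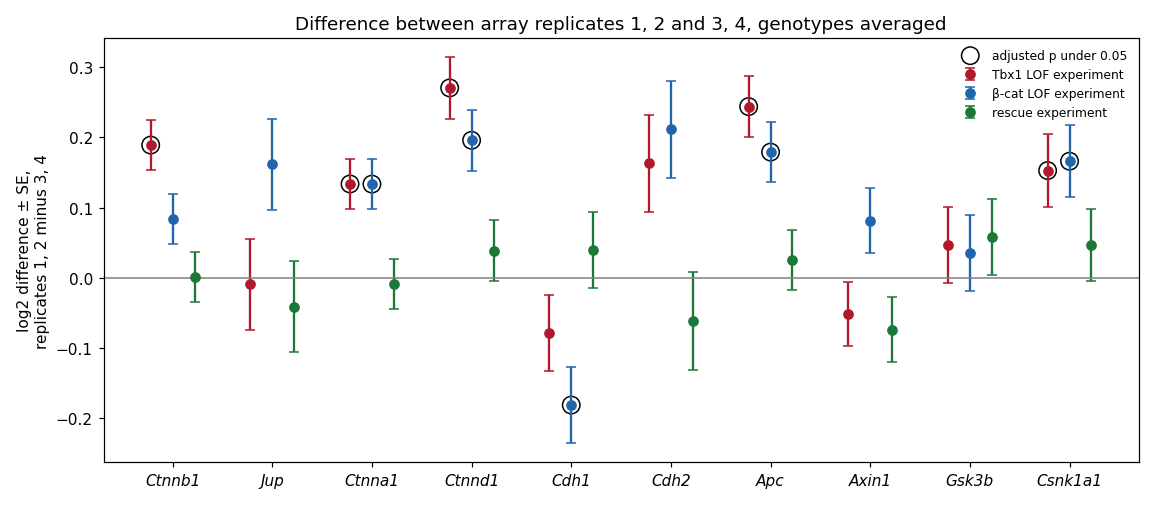
Difference of each gene between arrays numbered 1 and 2 and arrays numbered 3 and 4, in log2 ± SE, averaged over mutant and control within each experiment; black rings mark an adjusted p under 0.05. *Ctnnb1*, *Ctnna1*, *Ctnnd1*, *Apc* and *Csnk1a1* are ringed above 0 in the *Tbx1* experiment. In the β-cat experiment *Ctnna1*, *Ctnnd1*, *Apc* and *Csnk1a1* are ringed above 0 and *Cdh1* below 0, and no gene is ringed in the rescue experiment.

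Correlations with *Ctnnb1* from array to array were highest for 4 of the genes, and part of that order came with the division by replicate number. Over deviations from the group means on 24 arrays, *Ctnnb1* correlated with *Apc* at Pearson r = 0.901 (rho = 0.854), with *Ctnnd1* at r = 0.893 (rho = 0.877), with *Ctnna1* at r = 0.852 (rho = 0.823) and with *Csnk1a1* at r = 0.826 (rho = 0.804). The permutation p of r was 0.00145, 0.00031, 0.00064 and 0.0001 for these 4, and 0.00406, 0.00145, 0.00224 and 0.0007 after adjustment over 14 relations, with p for rho at 0.00189, 0.00082, 0.00107 and 0.00015. These permutations kept the arrays within their groups but not within replicates 1 and 2 or 3 and 4, so the p-values do not account for that division. Without the 2 arrays farthest from the median of *Ctnnb1*, r was 0.869, 0.883, 0.832 and 0.765. Taken within replicates 1 and 2 and within replicates 3 and 4, r was 0.370 for *Apc*, 0.510 for *Ctnnd1*, 0.643 for *Ctnna1* and 0.790 for *Csnk1a1*, and within the rescue experiment alone it was −0.375, 0.160, 0.357 and 0.516.

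Over the 24 arrays no relation with *Ctnnb1* was detected for *Jup* (r = 0.152, permutation p = 0.454; rho = 0.0643, p = 0.778), for *Axin1* (r = 0.0728, p = 0.784; rho = 0.0809, p = 0.744) or for *Cdh1* (r = −0.262, p = 0.257; rho = −0.363, p = 0.123). Within the divisions of the arrays, however, *Axin1* gave r = 0.399, above the 0.370 of *Apc*, while *Jup* gave 0.0779 and *Cdh1* 0.223. By experiment, *Axin1* gave −0.249 in the *Tbx1*, 0.642 in the β-cat and −0.0495 in the rescue experiment, and *Jup* −0.127, 0.447 and 0.0984. *Jup* and *Cdh1* gave r = −0.236 (permutation p = 0.488; rho = −0.00087, p = 0.999). *Cdh2* and *Gsk3b* lay between, at r = 0.530 (permutation p = 0.00332; rho = 0.658, p = 0.00429) and r = 0.468 (permutation p = 0.0121; rho = 0.479, p = 0.0348) with *Ctnnb1*, and within the divisions of the arrays r was 0.0976 for *Cdh2* and 0.553 for *Gsk3b*, the last above the 0.510 of *Ctnnd1*. In all, 7 of the 14 relations passed adjustment by r and 6 by rho, *Gsk3b* being the exception with an adjusted p for rho of 0.0697.

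*Cdh1* followed the mean of the epithelial markers at r = 0.917 (permutation p = 5e-05, adjusted 0.0007; rho = 0.891, p = 0.00011). The value was 0.865 without the 2 arrays farthest from the median, 0.869 within the divisions of the arrays, and 0.840, 0.973 and 0.843 within the *Tbx1*, β-cat and rescue experiments. For *Jup* and those markers the pooled value was r = −0.129 (permutation p = 0.693; rho = 0.116, p = 0.658), but the experiments differed, with r = 0.777 in the *Tbx1* experiment, where the *Jup* groups did not overlap, −0.392 in the β-cat and −0.110 in the rescue experiment. Without β-cat control array 2 the pooled value was 0.255. *Cdh2* gave r = 0.50 with the heart muscle mean (permutation p = 0.174; rho = 0.195, p = 0.468), which was −0.0621 without the 2 farthest arrays. By experiment that relation was 0.300 in *Tbx1*, 0.893 in β-cat and −0.892 in rescue, so the pooled value joins opposite relations. *Cdh2* gave r = 0.129 with neural tube markers (permutation p = 0.462; rho = 0.285, p = 0.216). *Jup* gave r = 0.543 with the heart muscle mean, a relation added after the values were seen (permutation p = 0.0622; rho = 0.356, p = 0.141), and 0.131 without the 2 farthest arrays. By experiment it was 0.333 in *Tbx1*, 0.699 in β-cat and 0.152 in rescue. *Cdh1* gave r = −0.490 with it, also added (permutation p = 0.155; rho = −0.320, p = 0.237), and −0.109 without them, with −0.0969 in the *Tbx1*, −0.922 in the β-cat and 0.794 in the rescue experiment. None of these differences between experiments was tested.

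**Figure D4:**
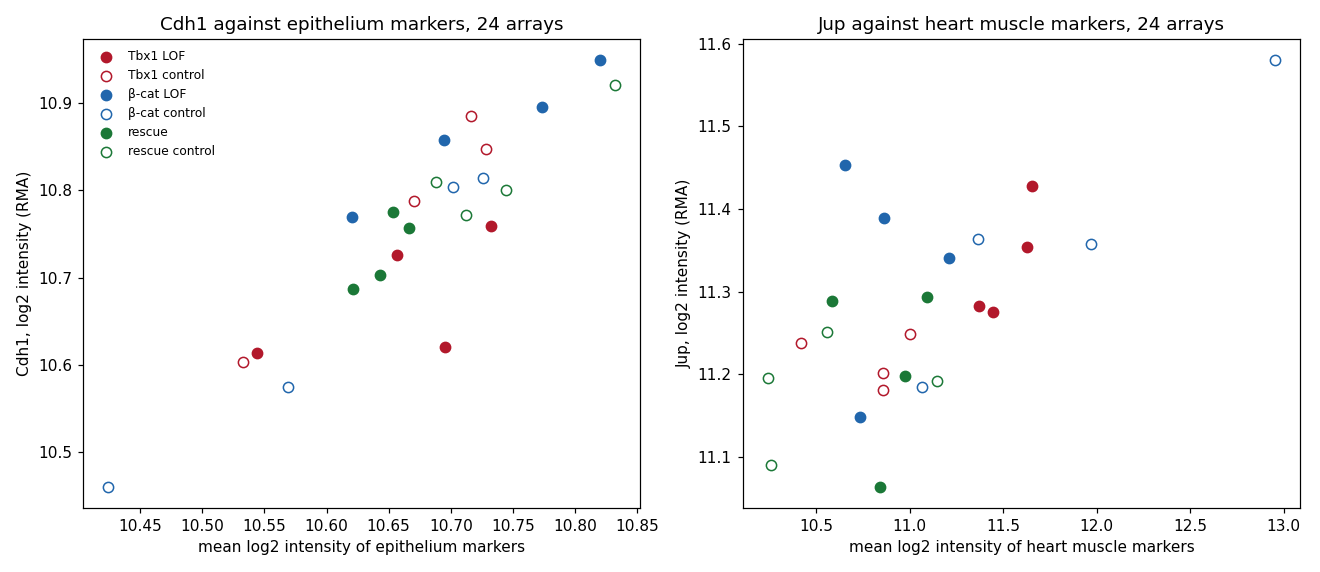
*Cdh1* against the mean of 15 epithelial markers (left) and *Jup* against the mean of 10 heart muscle markers (right), in log2 intensity on the 24 arrays, filled for mutants and open for controls. *Cdh1* rises along the epithelial mean in all 3 experiments, while the *Jup* panel is stretched by β-cat control array 2 at 12.95 log2 of heart muscle markers and 11.58 log2 of *Jup*.

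Over all genes and 24 arrays, the genes whose deviations were most like those of *Ctnnb1* were *Dcun1d4* (r = 0.966), *Khdrbs3* (0.961), *Armc1* (0.958), *Nf2* (0.956) and *Tnpo3* (0.955). For *Jup* they were *Foxj2* (0.908), *Acat1* (0.859), *Wwc2* (0.856), *Slc25a11* (0.855) and *Gss* (0.836). The list for *Cdh1*, drawn up after its values were seen, was *Ap1m2* (0.905), *Ambra1* (0.887), *Cep170b* (0.882), *Spata24* (0.873) and *Spint2* (0.871), of which *Ap1m2* and *Spint2* are among the epithelial markers. Within the divisions of the arrays the likeness to *Ctnnb1* fell to between 0.539 and 0.734 for its 5 genes.

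Beyond the 10 genes, 88 further genes of the pathway were measured: other catenins and plakophilins, other cadherins and junction plaque genes, other destruction complex genes, nuclear partners of β-catenin and feedback targets of canonical Wnt signalling. None of the 88 passed the adjusted threshold in any mutant by limma, and 6 in *Tbx1* LOF, 3 in β-cat LOF and 1 in rescue had an unadjusted p under 0.05. Over all genes the shares at that threshold were 4.12%, 5.72% and 1.27%, and those of the 88, at 6.82%, 3.41% and 1.14%, lay near them, so the genes named below are given as values and not as a result about the pathway. The medians of the 88 were −0.03, 0.00 and −0.02 log2 in that order. *Tcf7* was not analysed here, having no probe set of its own symbol alone.

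The further catenins and plakophilins gave no call in β-cat LOF. Of 9 other catenins and plakophilins, 0 had an unadjusted p under 0.05 there and 5 were higher on average, with a median of 0.00 log2. In *Tbx1* LOF the desmosomal plaque gene *Pkp1* read 7.84, 7.77, 8.14 and 7.86 log2, against 8.16, 8.15, 7.99 and 8.14 log2 on the controls (−0.21 log2, adjusted p = 0.917), and the groups overlapped through mutant array 3 and control array 3. The highest value of that list in *Tbx1* LOF was 0.18 log2 for *Pkp2*, the plakophilin of heart muscle, without passing the unadjusted threshold.

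Desmoplakin (*Dsp*), which anchors plakoglobin to intermediate filaments, gave the largest changes among the 19 other cadherins and plaque genes. On the *Tbx1* LOF arrays it read 11.56, 10.95, 11.13 and 11.06 log2, against 10.86, 10.85, 10.70 and 10.49 log2 on their controls, every mutant array above every control (0.45 ± 0.20 log2, SE; limma, adjusted p = 1.0 after rounding), which was under the unadjusted threshold. In β-cat LOF it differed by −0.40 log2, the lowest of the list. The difference between the 2 changes was 0.84 ± 0.28 log2 (SE; limma, adjusted p = 0.363), and *Dsc2*, a desmosomal cadherin, gave 0.61 ± 0.26 log2 for the same difference (adjusted p = 0.639). These 2 genes thus lay on the same side as *Jup* in that comparison, as did *Pkp2* (0.41 log2). The desmosomal gene *Pkp1* lay on the other side (−0.25 log2). *Dsp* and *Dsc2* share heart muscle and epithelium as sites of expression. For the same difference 10 of 10 heart muscle markers were positive (median 1.34 log2), but only 3 of 15 epithelial markers were (median −0.18 log2). The part of either tissue in the values was not tested.

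Other cadherins moved by less. *Cdh15*, the cadherin of muscle precursors, differed by −0.18 log2 in *Tbx1* LOF and by 0.17 log2 among β-cat LOF embryos, and the difference between the changes was −0.35 ± 0.11 log2 (SE; limma, adjusted p = 0.334). *Cdh5*, the endothelial cadherin, read 11.97, 12.01, 11.86 and 11.83 log2 on the β-cat LOF arrays, against 12.12, 12.17, 12.01 and 11.92 log2 (−0.14 log2, adjusted p = 0.854), beside 7 of 8 endothelial markers that were lower on average and 4 at an unadjusted p under 0.05. *Cdh10* differed by −0.15 log2 in *Tbx1* LOF and *Cdh13* by −0.20 log2 in rescue. These 4 cadherins were under the unadjusted threshold only.

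Of 32 other destruction complex genes, 1 had an unadjusted p under 0.05 in any mutant: *Frat2*, which encodes a Gsk3-binding protein, at 8.26, 8.26, 8.30 and 8.60 log2 on the β-cat LOF arrays, against 8.28, 8.04, 8.10 and 8.14 log2 on their controls (0.21 log2, adjusted p = 0.800). Among 12 feedback targets, whose transcription β-catenin drives in many tissues, 1 reached it: *Rnf43*, a ligase that removes Wnt receptors, at 8.70, 8.40, 8.56 and 8.48 log2 on the *Tbx1* LOF arrays, against 8.43, 8.41, 8.41 and 8.37 log2 (0.13 log2, adjusted p = 1.0 after rounding). None of these targets had an unadjusted p under 0.05 in β-cat LOF or rescue, where their changes ran from −0.14 to 0.11 log2 and from −0.15 to 0.06 log2. Among 18 nuclear partners 1 was lower in *Tbx1* LOF at that threshold and 0 in the other mutants, and the repressor *Tcf7l1* differed between *Tbx1* LOF and β-cat LOF by −0.18 ± 0.07 log2 (SE; adjusted p = 0.545).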

How the data were processed

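Microdissected AHF tissue was profiled on Affymetrix Mouse Gene ST 1.0 arrays, 4 per group in 6 groups. The authors made the deposited log2 values by RMA in the oligo package (version not given in the sources used here), which subtracts background, brings all arrays to one distribution of intensities and summarises the probes of each gene. Whether they include ComBat is not stated. Of 35556 probe sets, the 21789 with 1 symbol were kept and averaged per gene (19938 genes, 999 with more than 1 probe set), without a filter. Array medians lay between 8.0 and 8.14 log2. The number of arrays limits the precision.

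Groups were compared with limma 3.58.1 in R 4.3.3 as 6 group means over 24 arrays (18 residual and 4.74 prior degrees of freedom, median residual SD 0.112 log2), with Benjamini-Hochberg adjustment over all genes, beside exact permutation tests in scipy 1.17.1 and 100000 within-group resamples for correlations. The fit was tested on simulated data with independent noise on each array and no division by replicate number. That test therefore does not cover the division seen in these arrays. The p-values measure the spread between arrays of pooled embryos, which may be technical. The members, gene lists and tests were chosen with earlier results of these data known. Named are all members, targeted genes, markers and the 5 genes most like *Ctnnb1* and *Jup*. Up to 3 pathway genes per direction and comparison, with the smallest unadjusted p under 0.05, are named too. *Pkp2*, *Dsp* in β-cat LOF, *Pkp1* between mutants and the genes most like *Cdh1* were added after their values were seen. Same-numbered mutant and control arrays deviated together in the *Tbx1* experiment, with r = 0.396, 0.157, 0.202 and 0.494 for replicates 1 to 4, all over 0.1, the threshold used for taking numbers to pair arrays. This is a hint from the data and not from the labels, and 1 of the 4 mutant arrays correlated best with its own number. Alternatives were the replicate block, a term for replicates 1 and 2 against 3 and 4, either pair alone, other scalings, filters and fits, and each array left out. Protein sequences were not used here.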

Additional observations from a re-analysis of the deposited data

How the results depend on the processing

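No member passed the adjusted threshold in any of the 6 comparisons under any alternative run. The smallest adjusted p was 0.129, for *Cdh1* between *Tbx1* LOF and β-cat LOF with a term for replicates 1 and 2 against 3 and 4. Counting the members in each mutant, and *Ctnnb1*, *Jup* and *Cdh1* in the differences between mutants, 406 of 429 values under alternatives that left out no single array kept their direction and 23 turned, as did 53 of 384 with an array left out. None of those that turned had passed the adjusted threshold. The cause of each turn was not tested.

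Genes called numbered 6 in *Tbx1* LOF, 10 between *Tbx1* LOF and β-cat LOF and 0 in the other comparisons. With the replicate block there were 0 in *Tbx1* LOF, 2 in β-cat LOF, 2 between *Tbx1* LOF and β-cat LOF and 2 between rescue and β-cat LOF, and the block changed no call on a member. In the β-cat experiment same-numbered arrays correlated at r = 0.194, 0.089, 0.479 and 0.379, and 2 of 4 mutant arrays correlated best with their own number. With 1 pair below 0.1 the numbers were not taken to pair these arrays, though the values differ little from those of the *Tbx1* experiment and pairing is not settled. In the rescue experiment r was −0.064, 0.096, 0.256 and 0.00, with 1 array matched best to its own number. With the term for replicates 1 and 2 against 3 and 4 there were 10 in *Tbx1* LOF and 120 between *Tbx1* LOF and β-cat LOF. The count between *Tbx1* LOF and β-cat LOF was 0 with median centring, at probe set level, with trend and robust fitting, in the fit of only the groups compared and over replicates 3 and 4, and 3 over replicates 1 and 2. *Tbx1* LOF gave 0 over replicates 1 and 2, over replicates 3 and 4 and in the fit of its own groups. β-cat LOF gave 1 with quantile normalization and 3 over replicates 1 and 2, where rescue gave 1.

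Members at an unadjusted p under 0.05 numbered 0 in *Tbx1* LOF, 1 in β-cat LOF and 1 in both differences with β-cat LOF. The term gave 1 in *Tbx1* LOF (*Apc*) and 2 between *Tbx1* LOF and β-cat LOF (*Cdh1* and *Apc*). Replicates 3 and 4 alone gave 1 in *Tbx1* LOF (*Cdh1*, −0.19 log2), 0 in β-cat LOF and 0 between rescue and β-cat LOF.

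Leaving out 1 array at a time gave 0 to 32 genes called in *Tbx1* LOF (32 without mutant array 2, 0 without mutant array 1), 0 to 42 in β-cat LOF (42 without control array 4), 0 to 169 between *Tbx1* LOF and β-cat LOF (169 without β-cat control array 4), and 0 to 1 in each of the differences with rescue. Members at the unadjusted threshold ranged from 0 to 1 in *Tbx1* LOF (*Cdh1*, without control array 2), from 0 to 2 in β-cat LOF (0 without control array 2; *Cdh1* and *Cdh2* without control array 4) and from 1 to 2 between *Tbx1* LOF and β-cat LOF (*Jup* added without β-cat control array 4).

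Quantile normalization turned *Ctnna1* in *Tbx1* LOF (0.0117 log2), *Ctnnb1* in β-cat LOF (0.0050), *Axin1* in rescue (0.0052) and the difference of rescue from *Tbx1* LOF for *Ctnnb1* (0.0057) and *Cdh1* (−0.0018). Replicates 1 and 2 alone turned *Ctnna1* (0.0207), *Cdh2* (−0.0338), *Axin1* (−0.0149), *Gsk3b* (0.0287) and *Csnk1a1* (0.0100) in *Tbx1* LOF, *Ctnnb1* (0.0438) and *Csnk1a1* (0.0039) in β-cat LOF, *Jup* (−0.0900) and *Axin1* (0.0247) in rescue, *Cdh1* between rescue and *Tbx1* LOF (−0.1245) and *Jup* between rescue and β-cat LOF (−0.0186). Replicates 3 and 4 alone turned *Ctnnd1* in *Tbx1* LOF (−0.0437), *Apc* (−0.0401) and *Gsk3b* (−0.0647) in β-cat LOF, *Cdh2* in rescue (−0.0266), *Ctnnb1* between *Tbx1* LOF and β-cat LOF (0.0487) and between rescue and β-cat LOF (0.0432), and *Jup* between rescue and *Tbx1* LOF (0.0734).

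With 1 array left out, the changes in *Tbx1* LOF that crossed 0 were those of *Ctnnb1* (−0.0732 to 0.0122 log2), *Ctnna1* (−0.0414 to 0.0308), *Ctnnd1* (−0.0571 to 0.0797), *Cdh2* (−0.0136 to 0.0773), *Axin1* (−0.0212 to 0.0382) and *Csnk1a1* (−0.0537 to 0.0419). In β-cat LOF they were *Ctnnb1* (−0.0561 to 0.0025), *Jup* (−0.1008 to 0.0312), *Apc* (−0.0149 to 0.0982), *Gsk3b* (−0.0179 to 0.0367) and *Csnk1a1* (−0.0750 to 0.0063), and in rescue *Jup* (−0.0015 to 0.0782), *Cdh2* (−0.0131 to 0.0542) and *Axin1* (−0.0351 to 0.0237). The differences that did so were *Ctnnb1* between *Tbx1* LOF and β-cat LOF (−0.0473 to 0.0380), between rescue and *Tbx1* LOF (−0.0614 to 0.0239) and between rescue and β-cat LOF (−0.0517 to 0.0069), *Cdh1* between rescue and *Tbx1* LOF (−0.0283 to 0.0653) and *Jup* between rescue and β-cat LOF (−0.0020 to 0.1300).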
